A study of Equus caballus with 13 samples.

Results

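The RNA kinetics of cultured chondrocytes from young female horses, the reference group of a study of age and sex in synovial joint tissue, are described here across genes. The values are the authors' synthesis rate and RNA half-life for the young group in the table that also holds the old group, and all 11056 genes of that table were used, out of 11331 in the series' 2 tables together. They come from 5 of the 13 samples of the series, and nothing is compared with the old females (5 samples) or the young males (3 samples). Each of the 5 was a wild-type (WT) young female sample of chondrocytes taken from cartilage, kept for 2 days in complete DMEM and given 4-thiouridine (4sU) for 4 h. RNA was taken up in TRIzol, alkylated with iodoacetamide for 15 min at 50 °C and made into directional libraries from poly(A) RNA. The labels give no age in years, no breed, no joint and no sign of whether a sample was 1 animal. The column is headed only "Young", and it was read as young female because that table is listed for the young female samples and for no male. The 5 samples carry 5 different batch labels, so animal, culture and batch cannot be told apart.

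The amount of an mRNA in a cell is set by how fast it is made and how fast it is destroyed, and an mRNA with a short half-life reaches a new level sooner after synthesis changes than one with a long half-life. 4sU replaces some of the uridine in RNA made while it is present, and alkylation with iodoacetamide makes the labelled positions read as T-to-C changes in sequencing, so that new and old copies of each transcript can be counted in 1 library. Chondrocytes are the cells of cartilage, known for secreting a large extracellular matrix of collagen II, aggrecan and associated proteins.

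Each gene has 1 value for the whole group, without a standard deviation, and the sequencing depth behind it is unknown, so no test between genes or classes was possible and none is given. Half-lives are read as hours, since the largest is 69.3147, which is ln 2 divided by a decay rate of 0.01 per hour, and labelling times are in hours. The synthesis rate is on the deposited scale, whose unit is not given. The level used below is the synthesis rate divided by the decay rate, where the decay rate is ln 2 over the half-life, and is the steady-state amount these values imply. Neither was scaled here by transcript length, and whether the deposited scale is per length is not given, so the order of genes by level or synthesis rate may also follow length. Half-life does not carry that limit.

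The labelled cell type was checked against its markers. Of 15 chondrocyte markers 14 were listed, all but MATN1, and 11 of them were in the upper quartile of level. They made up 3.01% of the summed level of all genes. Of 10 markers of fibroblasts, which cultured chondrocytes can also come to express, 9 were listed and 6 were in the upper quartile, with 0.701% of the summed level. The wider matrix classes described further on stood in the opposite order: fibroblastic collagens and matrix, which include FN1 (2.94%), held 6.41% of the summed level and cartilage collagens and matrix 3.07%. Of 9 markers of hypertrophic chondrocytes or osteoblasts 5 were listed, with 0.189%, nearly all of it from SPP1 (osteopontin). Markers of other cells were mostly not listed among the genes of the table: 1 of 12 for macrophages (CD14), 1 of 8 for endothelium (VWF), 1 of 6 for adipocytes, 3 of 7 for smooth muscle or pericytes and 0 of 6 for erythroid cells. In such bulk samples, fewer cells of a type and less RNA per cell cannot be told apart.

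The median RNA half-life was 3.64 h, with quartiles at 1.78 and 8.67 h. The 5th percentile was 0.964 h and the 95th was 29.7 h, and 9582 genes (86.7%) had half-lives of 1 to 24 h. Under simple exponential decay, 53.3% of the molecules of the median gene would be replaced within the 4 h of labelling. The same arithmetic gives 93.8% for a half-life of 1 h and 10.9% for one of 24 h. Below 1 h lay 658 genes (5.95%), and above 24 h lay 816 (7.38%). On either side of the lower limit were NPAT, a histone gene coactivator, at 0.9996 h and LRIF1 at 1.0004 h. On either side of the upper limit were S100A11, a calcium-binding protein, at 23.99 h and ENY2 at 24.01 h.

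**Figure D1:**
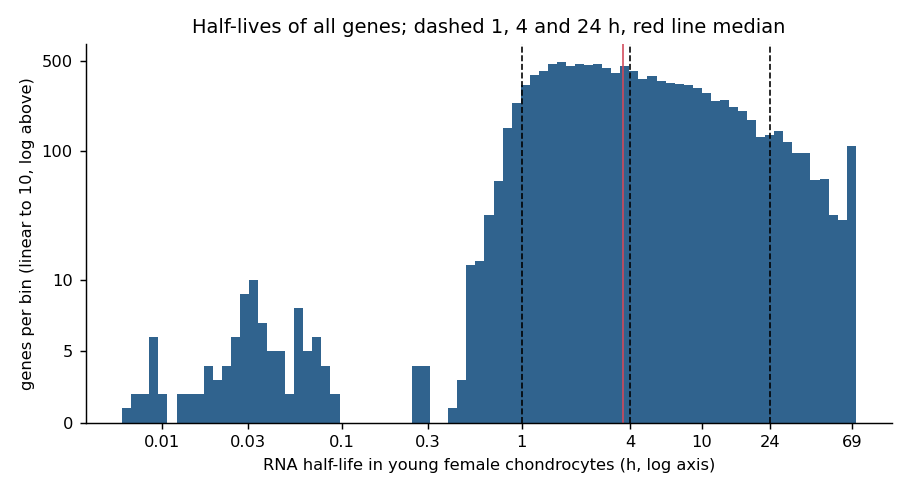
Number of genes by RNA half-life in hours, on a log axis, for the 11056 genes of the young group. Most genes lie between 1 and 24 h, 107 genes form a separate group under 0.4 h, and 91 genes stand at the ceiling of 69.3 h.

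Both ends of the scale hold values at or near the limit of what 4 h of labelling can resolve. At the upper end, 91 genes (0.823%) had exactly the ceiling half-life of 69.3 h, at which 3.92% of molecules would be replaced during labelling, and the next gene below was ECM1, a matrix protein, at 69.1 h. At the lower end, 107 genes (0.968%) had half-lives under 0.4 h, and 99 of them were under 0.1 h. The longest of this group was NAIF1 at 0.291 h, and the next gene above it was HLX, a homeobox factor, at 0.437 h. At 0.4 h, 99.9% of molecules would already be replaced in 4 h, so the labelled share can differ little between any shorter half-lives. The limit of 0.4 h was chosen after this empty stretch of the scale was seen.

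The same 5 samples were estimated a second time by the authors, for the table that sets young females against young males, and 10974 genes have both values. This repeat shares all cells and reads, so it shows how much the estimate moved and nothing about the spread between animals. For the 9513 genes of 1 to 24 h, the median absolute difference was 0.0035 on the log2 scale and the 95th percentile was 0.15. For the 721 genes between 24 h and the ceiling the corresponding values were 0.0029 and 0.091. For the 546 genes of 0.4 to 1 h the median was 0.018, but the 95th percentile was 3.29, and 33 of these genes were under 0.4 h in the second estimate. AMOTL2, an angiomotin-family protein, went from 0.605 to 0.099 h, and DDIT4, an inhibitor of mTORC1, from 0.617 to 0.0816 h.

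The shortest half-lives were the least repeatable. The 107 genes under 0.4 h were mostly of low level. Their median level percentile was 19.5, with 32 in the lowest decile of level and 2 in the highest. Of the 104 genes under 0.4 h that are in both tables, 41 stayed under 0.4 h and 63 moved to between 0.553 and 1.78 h, with a median of 0.907 h. Their level hardly moved meanwhile: the ratio of the second to the first level had a median of 0.971 and a range of 0.902 to 1.10, beside a median of 0.955 over all genes. Half-life and synthesis rate therefore changed by opposite amounts in these genes. At the other end, 87 of the 90 ceiling genes found in both tables were at the ceiling in both, while the second estimate had 107 genes at the ceiling in all. Single genes named below with a half-life under 0.4 h in either table are given with both estimates.

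**Figure D2:**
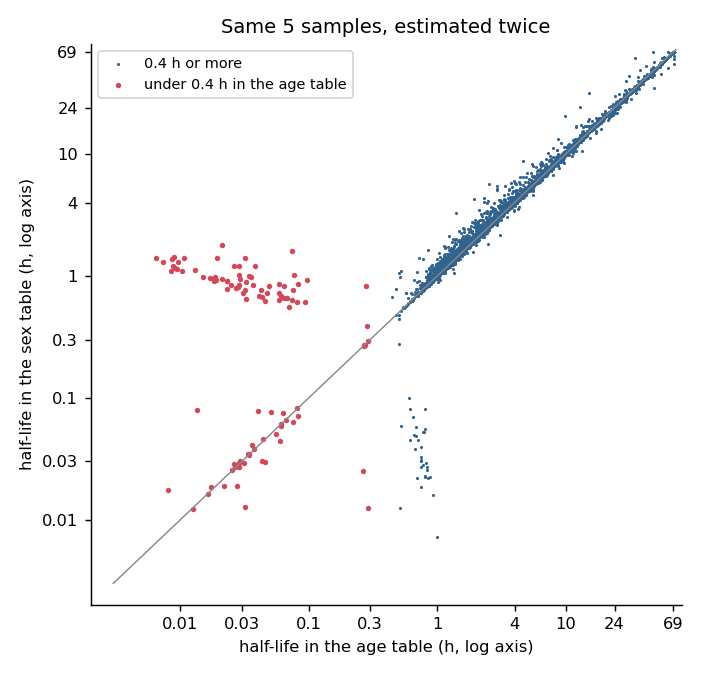
Half-life in hours from the age table (x axis) and from the sex table (y axis), both log axes, with 1 point per gene for the same 5 samples. Points follow the diagonal from about 1 h up to the ceiling of 69.3 h. Many genes under 0.4 h in either table scatter away from it, while others stay near it.

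Functional classes differed widely in half-life. Across 47 classes covering 1734 genes (15.7% of all), class medians ran from 0.977 h for feedback inhibitors of MAPK signalling to 38.2 h for cartilage collagens and matrix, a 39.1-fold range. The median was below that of all genes in 21 classes and above it in 26. Neighbours in the order overlapped in all 46 cases, judged by their interquartile ranges, so only wider steps along the order separate classes. In the second estimate no class median moved by more than 1.19-fold. Each was taken over the class members listed for that estimate, and the lists differ. In fibroblastic collagens and matrix, the class that moved most, no shared gene moved by more than 0.126 on the log2 scale. Among the 1725 genes that belong to 1 class only, differences between classes held 57.1% of the variance of log2 half-life, 38.9% of that of log2 level and 19.8% of that of log2 synthesis rate. Class genes are not independent samples, and these shares are a description.

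The classes were set in 6 broader groups by role, which were ordered in the same way. The 490 genes of transcription, chromatin and feedback control, cytokines and Wnt and Notch targets included, had a median half-life of 1.34 h. Of these regulators, 72.4% were in the shortest quartile of all genes, which by construction holds 25.0%. The 113 genes that act on RNA had a median of 2.63 h, and the 474 genes of signalling, transport and turnover 3.85 h. The 187 genes of protein making (8.32 h) and the 312 of metabolism, folding and cell structure (10.6 h) were longer. The 165 matrix genes had a median of 19.5 h, with 67.9% in the longest quartile, which likewise holds 25.0% of all genes. The upper quartile of the first group, 1.88 h, lay under the lower quartile of the matrix group, 6.21 h.

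**Figure D3:**
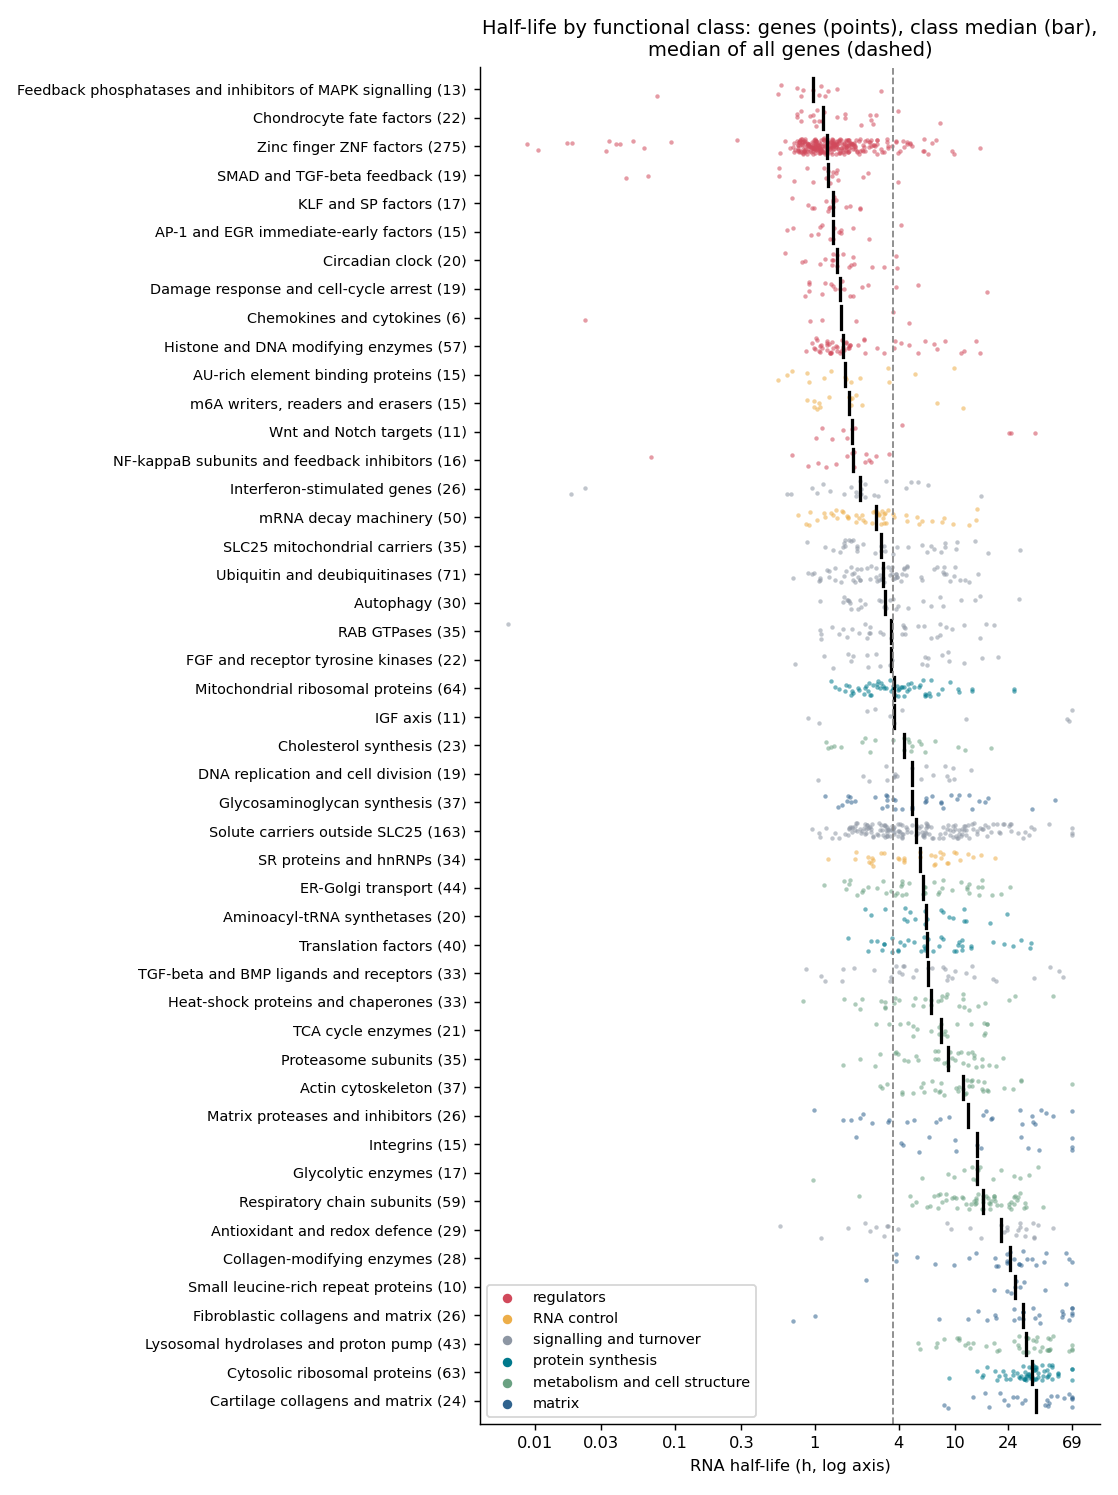
RNA half-life in hours (log axis) for every gene of the 47 functional classes (points), with the class median (bar), classes in order of their median and the number of genes in brackets. Feedback inhibitors and transcription factors occupy the short end, near 1 h, and cytosolic ribosomal, lysosomal and cartilage matrix genes the long end, above 30 h.

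The shortest class was the MAPK feedback inhibitors, whose products switch off the ERK, JNK and p38 kinases or the receptors above them. Its 13 listed genes had a median of 0.977 h, and 12 were in the shortest quartile. ERRFI1, an inhibitor of the EGF receptor, had a half-life of 0.548 h, and DUSP1, a phosphatase that removes the activating phosphates of p38, JNK and ERK, 0.576 h. The ERK phosphatase DUSP6 did not repeat, at 0.797 h and then 0.0229 h. The Sprouty and SPRED inhibitors of RAS to ERK signalling had a median of 0.977 h over 5 genes, with SPRED2 at that value and SPRY4 under the 0.4 h limit in both estimates (0.075 and 0.063 h). DUSP14 was the longest at 2.96 h.

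Immediate-early factors, which are made within minutes of a stimulus, had a median of 1.35 h over 15 listed genes, with 12 in the shortest quartile. The AP-1 subunit JUNB was at 0.638 h, JUN at 1.29 h and FOS, the median gene, at 1.35 h. EGR1, a zinc-finger factor induced by serum and load, was at 1.06 h. The longest were ATF3 at 2.44 h and FOSB at 4.16 h. The 17 KLF and SP factors, which bind GC-rich promoter elements, were the most uniform of these classes, with quartiles at 1.20 and 1.43 h. They ran from KLF3 at 0.694 h to KLF16 at 2.12 h, with KLF7 (1.34 h) nearest the median and KLF2 (1.20 h) and KLF4 (1.35 h) close to it.

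Feedback genes were shorter than the signal carriers of the same pathway in the NF-kappaB lists, and less clearly so in the SMAD lists. The 5 NF-kappaB subunits had a median of 2.44 h, from REL at 1.43 h to RELA at 2.74 h. Their 9 inhibitors and feedback regulators had a median of 1.21 h and a wider range that enclosed the subunits. NFKBIA, the inhibitor that holds NF-kappaB in the cytoplasm, was at 0.69 h, and the deubiquitinase TNFAIP3 at 1.90 h. NFKBIB was the longest at 3.39 h, and NFKBIZ, an atypical nuclear member, was at 0.068 h in one estimate and 0.655 h in the other.

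In the SMAD list of 19 genes (median 1.25 h), the 6 signal-carrying SMADs had a median of 1.39 h and the 9 inhibitory SMADs and corepressors 1.25 h. SMAD7, which blocks the TGF-beta receptor, was at 0.969 h and SMURF1, a ubiquitin ligase for SMADs, at 1.25 h, beside 1.34 h for SMAD3. The ID factors, targets of BMP signalling that block basic helix-loop-helix factors, were shorter: ID1 at 0.559 h, ID3 at 0.555 h and ID4 at 1.17 h. ID2 was at 0.0644 h and then 0.655 h. SMAD1, a BMP signal carrier, was under 0.4 h in both estimates (0.0453 and 0.0295 h). The longest was PMEPA1 at 3.96 h.

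Factors that set chondrocyte fate had a median of 1.14 h, with 15 of 22 in the shortest quartile. SOX9, the factor that directs cartilage gene expression, had a half-life of 0.75 h, and its partners SOX5 and SOX6 had 1.16 and 2.51 h. FOXC1 was the shortest at 0.744 h. The hedgehog effectors GLI2 (1.12 h) and GLI3 (1.07 h) lay near the class median. RUNX2, the factor of hypertrophy and bone, was at 2.62 h (3.69 h in the second estimate), and RUNX1 at 0.968 h. The hypoxia factors HIF1A and EPAS1 were the longest at 3.95 and 7.91 h, while their partner ARNT was at 1.65 h.

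SOX9 stood far from the matrix genes that it is known to drive. Its 0.75 h compare with 16.4 h for ACAN (aggrecan), 22.6 h for COL2A1 (the collagen II chain), 27.7 h for COL11A1 and 60.1 h for COL9A2. At these half-lives nearly all SOX9 transcripts would be replaced during the labelling period while most COL2A1 transcripts would remain.

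The 20 circadian clock genes had a median of 1.44 h. The repressors of the loop had a median of 1.35 h over 11 genes, from the nuclear receptor NR1D1 at 0.617 h to CIART at 3.91 h. The 4 activators listed had 1.89 h, with CLOCK at 1.87 h and BMAL1 at 1.91 h. The period genes differed among themselves: PER2 had 1.19 h, PER1 1.45 h and PER3 3.84 h. DBP, an output factor of the clock, was nearest the class median at 1.43 h.

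The 19 genes of damage response and cell-cycle arrest had a median of 1.51 h, from the stress-induced SESN1 at 0.856 h. BBC3, a pro-apoptotic BH3 protein, was at 1.51 h and CDKN1A, the inhibitor p21, at 1.39 h. MDM2, a ubiquitin ligase, was at 2.19 h. One member lay far off: CCNG1 (cyclin G1) had 16.9 h, beside 1.58 h for its paralogue CCNG2. Of the 24 chemokines and cytokines on the list 6 were listed in the table, with a median of 1.55 h. They ran from IL6, at 0.023 h and then 0.780 h, over LIF at 1.12 h to IL34 at 4.73 h.

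The ZNF zinc-finger factors, many of which are KRAB repressors of transposable elements, formed the largest class, with 275 genes. Their median was 1.23 h, with quartiles at 0.966 and 1.76 h, and 208 of them were in the shortest quartile. ZNF239 was the median gene at 1.23 h. The longest was ZNF219, known as a partner of SOX9, at 15.2 h. The class also held 12 of the genes under 0.4 h, from ZNF649 at 0.00883 h (1.44 h in the second estimate) to ZNF214 at 0.279 h (0.830 h).

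Histone and DNA modifying enzymes had a median of 1.58 h over 57 genes, with 37 in the shortest quartile. TET2 and TET1, which oxidise methylcytosine, were at 0.868 h (the shortest) and 1.58 h (the median). The acetyltransferase EP300 was at 0.96 h and the methyltransferase KMT2A at 1.08 h. A few members were long: HDAC2 had 8.54 h, the maintenance methyltransferase DNMT1 11.1 h and HDAC1, the longest, 15.2 h.

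Proteins that bind AU-rich elements and other decay signals in mRNA had a median of 1.65 h over 15 genes but covered a wide range. The 3 ZFP36 family members, which recruit deadenylases to AU-rich elements, ran from 0.639 h (ZFP36L2) to 0.913 h (ZFP36). ZC3H12A, an endonuclease that cuts inflammatory mRNAs, was the shortest of the class at 0.545 h, and RC3H1, which binds stem-loops, was at 0.882 h. ELAVL1, which stabilises such transcripts, was at 3.42 h and HNRNPD (AUF1) was the longest at 9.97 h. PUM2 was the median gene.

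The decay machinery itself was closer to the average gene, with a median of 2.75 h over 50 genes. The 4 BTG and TOB adaptors, which bring CCR4-NOT to its targets, had a median of 1.06 h, from BTG1 at 0.913 h to TOB1 at 1.35 h. The deadenylase subunits had 1.97 h, decapping and 5' to 3' decay 2.80 h, the exosome 3.04 h and nonsense-mediated decay 3.09 h. The shortest single gene was the deadenylase CNOT6L at 0.758 h and the longest the decapping cofactor subunit LSM3 at 14.5 h, with the decapping scaffold EDC4 (2.70 h) near the median. The 15 genes of the m6A system had a median of 1.75 h. Its cytoplasmic readers YTHDF1, YTHDF2 and YTHDF3 were at 0.988, 1.04 and 1.07 h, the demethylase ALKBH5 at 1.75 h, the demethylase FTO at 7.51 h and the reader IGF2BP2 at 11.4 h.

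Splicing regulators split by family. The 11 SR proteins, which mostly promote exon inclusion, had a median of 2.63 h, and 20 hnRNPs had 7.96 h. The ranges overlapped, from SRSF4 at 1.24 h to SRSF9 at 8.32 h, and from HNRNPA0 at 1.95 h to HNRNPM at 19.4 h.

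In the IGF axis, secreted binding proteins were longer than receptors and substrates. There, the 4 listed IGF-binding proteins, which hold IGF outside the cell, had a median of 64.6 h. IGFBP5 was at 12.1 h, IGFBP2 at 63.5 h, IGFBP7 at 65.7 h and IGFBP6 at the ceiling of 69.3 h. The 4 receptors and substrates had a median of 1.89 h, from IRS1 at 0.892 h to IGF1R at 4.24 h. These ranges did not overlap.

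In the TGF-beta and BMP list of 33 genes, the ranges of all subgroups overlapped. Its 11 ligands had a median of 4.39 h, from BMP2 at 0.875 h to GDF10 at 13.7 h, and its 11 receptors 3.81 h. The 10 ligand traps and latent-complex proteins had 15.6 h. LTBP2, which sits in matrix microfibrils, was at 60.0 h and the BMP antagonist CHRD at 48.3 h, whereas the activin antagonist FST was at 2.65 h. In the Wnt and Notch list of 11 genes (median 1.86 h), the secreted antagonists FRZB, SFRP1 and DKK3 had 24.7, 25.1 and 37.8 h. All other members, from the feedback gene AXIN2 at 1.02 h to TCF7 at 4.24 h, were below them.

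In the FGF and receptor tyrosine kinase list, receptors had the longer median. Its 11 ligands had a median of 2.38 h, with VEGFB the longest at 15.6 h, and its 10 kinase receptors had 7.24 h. The receptors ran from PDGFRA at 1.17 h to AXL at 20.6 h. FGFR3, which restrains chondrocyte growth, was at 9.17 h and FGF18, one of its ligands in cartilage, at 1.89 h.

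Interferon-stimulated genes had a median of 2.11 h over 26 listed of 43. IRF1 was at 1.82 h and PARP9 (2.10 h) nearest the median. IFIT2 did not repeat, at 0.682 h and then 0.0482 h. SOCS3, a feedback inhibitor of cytokine receptors, was at 0.632 h, and SOCS1 was the shortest at 0.0182 h but had 0.902 h in the second estimate. The autophagy genes (30, median 3.18 h), RAB GTPases of vesicle traffic (35, 3.50 h) and ubiquitin-conjugating enzymes and deubiquitinases (71, 3.08 h) lay near the average gene. RAB3A had the lowest value of all genes, 0.00642 h, and 1.40 h in the second estimate.

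Among 19 listed genes of DNA replication and division the median was 4.93 h, with the mitotic kinase PLK1 at 1.06 h and the replication genes MCM2 and GINS1 at 4.93 and 13.0 h. Solute carriers outside the mitochondrial family numbered 163, with a median of 5.32 h and a range from the phosphate carrier SLC20A1 at 0.963 h to the ceiling. The glucose carrier SLC2A3 was at 1.20 h and the amino acid carrier SLC38A2 at 1.07 h. The 35 mitochondrial SLC25 carriers had a median of 3.00 h, with SLC25A25 at 0.882 h and SLC25A39 at 29.5 h.

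The 2 kinds of ribosome stood apart. Cytosolic ribosomal protein genes had a median of 35.6 h over 63 genes, all 63 in the longest quartile, with quartiles at 29.2 and 42.5 h. Large-subunit genes had a median of 32.2 h and small-subunit genes 38.8 h. RPS15 was the median gene at 35.6 h, and RPLP0, RPLP1 and RPS21 were at the ceiling. Mitochondrial ribosomal protein genes had a median of 3.69 h over 64 genes, with 7 in the longest quartile, from MRPL44 at 1.31 h to MRPL11 at 26.6 h.

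Some symbols have more than 1 record, with different values. RPL26, the shortest cytosolic member at 9.09 h, had a level of 248 on the deposited scale, and a second record of that name, RPL26.1, had 24.9 h and a level of 23667. TIMP2 likewise had a second record: it was listed at 2.22 h with a level of 134 and as TIMP2.1 at 54.5 h with a level of 79128. Ferritin heavy chain was at 27.4 h as FTH1 and 56.3 h as FTH1.1. In all, 28 symbols carry such a suffix, and which record holds the functional gene was not tested.

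Other protein-making genes were intermediate. The 20 cytosolic aminoacyl-tRNA synthetases had a median of 6.30 h, from CARS1 at 2.29 h to QARS1 at 23.8 h. The 40 translation factors had 6.34 h. The cap-binding protein EIF4E was at 2.39 h, whereas the elongation factor EEF1A1 was at 30.0 h and EIF3K was the longest at 35.4 h.

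Energy metabolism was on the long side. Respiratory chain subunits had a median of 16.0 h over 59 genes, 48 of them in the longest quartile. Complex IV had the longest median, 23.1 h over 8 genes, complex I 16.0 h over 29 and complex II 10.0 h over 4. The Rieske protein gene UQCRFS1 was the shortest at 2.07 h and NDUFB5 the longest at 42.7 h. The 21 TCA cycle enzymes had 8.05 h, from citrate synthase (CS) at 2.74 h to IDH3A at 17.0 h.

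Glycolytic enzymes had a median of 14.4 h, with 15 of 17 in the longest quartile. GPI, LDHA and ALDOA were at 14.4, 14.3 and 14.8 h, GAPDH was at 34.2 h and ENO2 was the longest at 39.3 h. HK2, the inducible hexokinase at the entry of the pathway, was the exception at 0.969 h. HK1, the constitutive form, was next at 5.89 h.

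Cholesterol synthesis had a similar contrast. HMGCS1 (1.20 h), an early enzyme of the pathway, the later enzyme SQLE (1.24 h) and the sterol sensor INSIG1 (1.31 h) were among the shortest. The class median over 23 genes was 4.37 h (DHCR7), and TM7SF2 was the longest at 18.2 h.

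Antioxidant genes spread more than most, with a median of 21.4 h (NQO1) and quartiles at 3.28 and 29.5 h over 29 genes. Among half-lives of 1 to 24 h the class median was 3.94 h. Over the members listed for the second estimate it was 18.4 h, although no shared member moved by more than 0.160 on the log2 scale. Many effectors were long: the superoxide dismutases SOD1 and SOD3 and catalase (CAT) were at 36.6, 36.8 and 28.3 h, and PRDX4 was the longest at 50.1 h. The mitochondrial peroxiredoxin PRDX3 was short, at 2.47 h. NFE2L2, the master factor of the response, was at 1.10 h and its inhibitor KEAP1 at 2.31 h. TXNIP, which binds and blocks thioredoxin, was the shortest at 0.57 h, while thioredoxin itself (TXN) was at 32.3 h.

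Chaperones had a median of 6.79 h over 33 genes. The DNAJ cochaperones had 2.17 h over 7 genes, with DNAJB4 the shortest at 0.820 h, the HSP70 and HSP110 genes 5.06 h over 9 and the CCT chaperonin 8.82 h over 7. The small heat-shock proteins HSPB6, HSPB1 and CRYAB ran from 16.4 to 27.2 h. The ER chaperone HSP90B1 was the longest at 50.5 h. In the proteasome (35 genes, median 9.00 h), the 20S core had a median of 10.5 h and the 19S cap 7.43 h, with PSMD12 at 1.59 h and PSMD8 at 22.2 h as the extremes.

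ER to Golgi transport had a median of 5.99 h over 44 genes, from the SNARE GOSR1 at 1.17 h to the cargo receptor TMED10 at 25.0 h. Actin cytoskeleton genes, listed together with the intermediate filament gene VIM, had 11.4 h over 37 genes. ACTB was at 7.94 h, VIM at 17.3 h and TAGLN, a smooth muscle actin-binding protein, at the ceiling.

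The lysosomal list had a median of 32.4 h over 43 genes, with 38 in the longest quartile, and divided by function. The 12 proton pump genes had a median of 10.6 h, from ATP6V1D at 5.45 h, the shortest of the class, to ATP6AP2 at 45.5 h. The 10 cathepsins had 36.8 h, from CTSO at 16.8 h to CTSA at the ceiling, and the 13 glycosidases and sulfatases 33.7 h. CTSK, the cathepsin that cuts collagen, was at 47.4 h and CTSF was the median gene.

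Cartilage collagens and matrix had the longest median of all classes, 38.2 h over 24 listed genes, with 23 in the longest quartile. With ceiling values left out its median was 29.1 h, below those of cytosolic ribosomal (34.5 h), lysosomal (30.0 h) and fibroblastic matrix genes (29.8 h). It was thus first only with ceiling genes kept. Leaving them out can only lower a median, by construction. It removed 4 of 24 cartilage, 4 of 26 fibroblastic, 3 of 43 lysosomal and 3 of 63 ribosomal genes. The collagens II, IX and XI that form the cartilage fibril ran from COL2A1 at 22.6 h to COL9A3 at the ceiling. COMP, which binds collagen fibrils, was at 65.2 h, and CHAD, CNMD and CRTAC1 were at the ceiling. HAPLN1, the link protein that ties aggrecan to hyaluronan, was at 13.5 h, close to the 16.4 h of ACAN. The shortest was CLEC3A at 8.41 h, still above the median of all genes.

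Fibroblastic collagens and matrix had 30.8 h over 26 genes, with 23 in the longest quartile. COL1A1 was at 17.0 h and COL1A2, its partner chain in collagen I, at 30.7 h. COL3A1 was at 19.9 h, FN1 (fibronectin) at 39.9 h and the 3 collagen VI chains between 29.0 and 59.5 h. COL16A1, COL18A1, COL5A3 and VCAN were at the ceiling. CCN1 and CCN2, matricellular proteins induced by stretch and TGF-beta, were at 0.707 and 1.01 h, and the next, THBS1, was at 7.75 h. These 2 were the only members in the shortest quartile.

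The 10 listed small leucine-rich repeat proteins had a median of 27.2 h. LUM (lumican) was at 19.2 h, PRELP at 26.8 h, FMOD (fibromodulin) at 29.1 h, DCN (decorin) at 44.0 h and BGN (biglycan) at 62.9 h. PODN, at 2.32 h, was the only member below 19 h. The 28 collagen-modifying enzymes had 24.9 h, with 24 in the longest quartile. P4HA2, a prolyl hydroxylase subunit, was at 25.1 h, PLOD3 at 62.2 h and the cross-linking enzyme LOX at 66.0 h, whereas LOXL4 was at 3.79 h.

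Matrix proteases differed by family in their medians, but the ranges of the families overlapped. The 7 listed MMPs had a median of 35.7 h, from the membrane-bound MMP14 at 5.13 h over the collagenase MMP13 at 9.09 h to MMP1 at the ceiling. MMP3 (stromelysin 1) was at 35.7 h and MMP2 (gelatinase A) at 50.4 h. The 6 ADAMTS proteases had a median of 2.34 h. ADAMTS4 and ADAMTS5, the main aggrecan-cutting enzymes, were at 2.12 and 2.55 h, ADAMTS1 at 0.988 h and ADAMTS10 at 15.8 h. Medians were 16.3 h for 4 ADAM proteases (3.34 to 37.4 h) and 4.59 h for 3 plasminogen activation genes (1.83 to 18.6 h). The inhibitors TIMP1 and TIMP3 were at 30.3 and 16.9 h and the serpin SERPINE2 at 41.6 h.

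Genes of glycosaminoglycan synthesis, most of which make or sulfate sugar chains such as those of aggrecan and a few of which act on finished chains, had the shortest class median of the matrix group, with a value of 4.95 h over 37 genes. CHSY1, which extends chondroitin chains, was the shortest at 1.19 h, and HAS2, the hyaluronan synthase, was at 1.48 h. CEMIP, a hyaluronan-degrading protein, was at 4.95 h. UGDH, which makes the glucuronate donor, was at 6.95 h and the extracellular sulfatase SULF2 the longest at 52.3 h. Integrins had a median of 14.4 h (ITGA1) over 15 genes, from ITGB8 at 1.97 h to ITGAV, ITGAX and ITGB3 at the ceiling. The fibronectin receptor chain ITGA5 was at 4.13 h, its partner ITGB1 at 33.6 h and the collagen receptor chain ITGA10 at 29.7 h.

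Summed level and summed synthesis were set against half-life. Because level is synthesis rate times a multiple of half-life, level must weigh towards longer half-lives than synthesis does, and the values below give only the size of that shift. Ordered by half-life, the summed level reached its midpoint at 12.5 h and the summed synthesis at 1.51 h. Genes over 24 h held 32.0% of the level and 3.59% of the synthesis. Genes under 1 h held 2.64% of the level and 35.1% of the synthesis. The share of synthesis depends on the poorly repeated estimates: the 107 genes under 0.4 h alone held 22.4% of the synthesis and 0.269% of the level, and the midpoint of synthesis was 2.18 h without them and 1.73 h in the second estimate. The midpoint of level was 12.5 h in both estimates. Matrix genes held 16.5% of the level and 4.55% of the synthesis, and the regulators 2.38% and 12.2%, of which 4.38 percentage points came from members under 0.4 h.

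**Figure D4:**
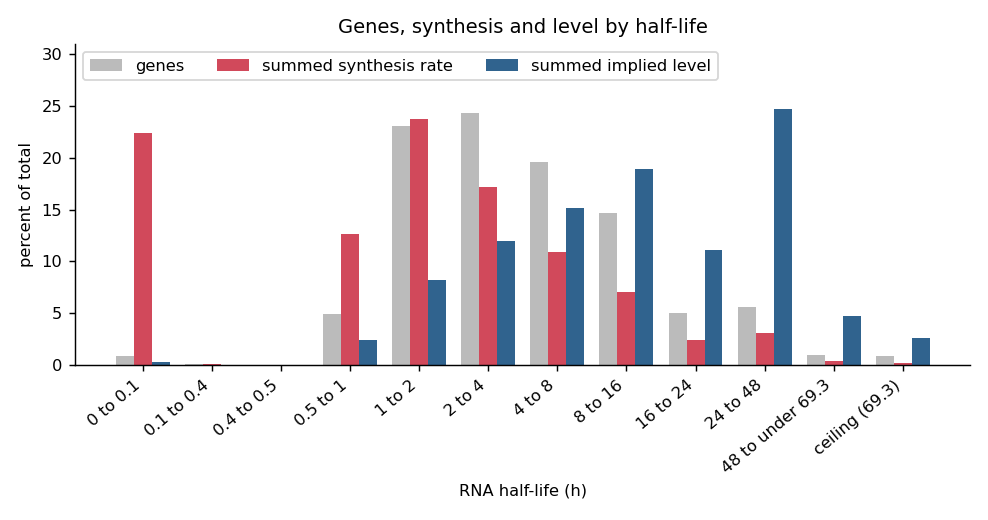
Percent of genes, of summed synthesis rate and of summed implied level (bars) in 12 ranges of RNA half-life in hours. Synthesis is concentrated at short half-lives, including 22.4% under 0.1 h, and level at long ones, with 24.7% between 24 and 48 h.

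Across genes, half-life and synthesis rate were inversely related (Spearman's rho -0.43), half-life and level weakly positively (0.27) and synthesis and level positively (0.70). These are descriptions over 11056 genes, which are not independent replicates, and level is the product of the other quantities, so the 3 coefficients share their error. Among genes of 1 to 24 h the coefficients were -0.36, 0.23 and 0.80.

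Of the 100 genes of highest level, on a scale that may include transcript length, 26 were matrix genes, 17 were genes of metabolism, folding and cell structure and 10 of protein making, groups that hold 165, 312 and 187 of the 11056 genes. Among genes with a symbol, FN1 was first, at 1880390 with a half-life of 39.9 h and 2.94% of the summed level. SERPINE2 (41.6 h), THBS1 (7.75 h), ACAN (16.4 h), TIMP3 (16.9 h), ENO1 (26.7 h), EEF1A1 (30.0 h) and COL2A1 (22.6 h) came next. FTH1.1, the secreted chaperone CLU (31.4 h), GAPDH, COMP, VIM, MMP3 and PKM (15.3 h) completed the first 15 genes with a symbol. A gene listed only by its Ensembl identifier, at the ceiling, ranked between GAPDH and COMP. Of the 15, all but THBS1 had half-lives of 15 h or more. The 100 highest levels held 31.4% of the total and had a median half-life of 26.8 h, and 56 of them were over 24 h. The regulators, with 490 genes in all, supplied 1 of the 100, ERRFI1.

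The highest synthesis rates belonged to short-lived transcripts, and many did not repeat. Of the first 15 genes 12 had half-lives under 0.4 h, as did 52 of the first 100. ARRDC3, an arrestin-domain protein and the first by rate, had 0.0812 h and a rate of 473705 in one estimate and 0.615 h and 60429 in the other. SNAI1 and SNAI2, factors of mesenchymal state, stayed under 0.4 h in both, at 0.0821 and 0.0708 h and at 0.0608 and 0.0613 h. The remaining genes of very short half-life and high rate moved out, such as SOX4 (0.0585 and 0.630 h), ARID5B (0.0471 and 0.719 h) and ADM (0.0740 and 0.631 h), or stayed, as MID1IP1 did at 0.0343 and 0.0345 h. FBXL14 and SETBP1 went from 0.0189 to 0.917 h and from 0.0151 to 0.984 h.

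With half-lives under 0.4 h set aside, the highest synthesis rate was that of ERRFI1 (152926, 0.548 h), followed by THBS1 (66242, 7.75 h), CCN2 (58770, 1.01 h), CCN1 (42491, 0.707 h) and ID1 (39410, 0.559 h). FN1 (32682, 39.9 h) and ACAN (28052, 16.4 h) were also among the first 9, so high synthesis was not confined to unstable transcripts. In all, 23 genes were among the 100 highest on both scales, with a median half-life of 6.13 h. Abundant transcripts of repeatable short half-life were ID3 (0.555 h), TXNIP (0.570 h), DUSP1 (0.576 h) and PPP1R3C (0.589 h), a glycogen-targeting subunit of protein phosphatase 1.

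**Figure D5:**
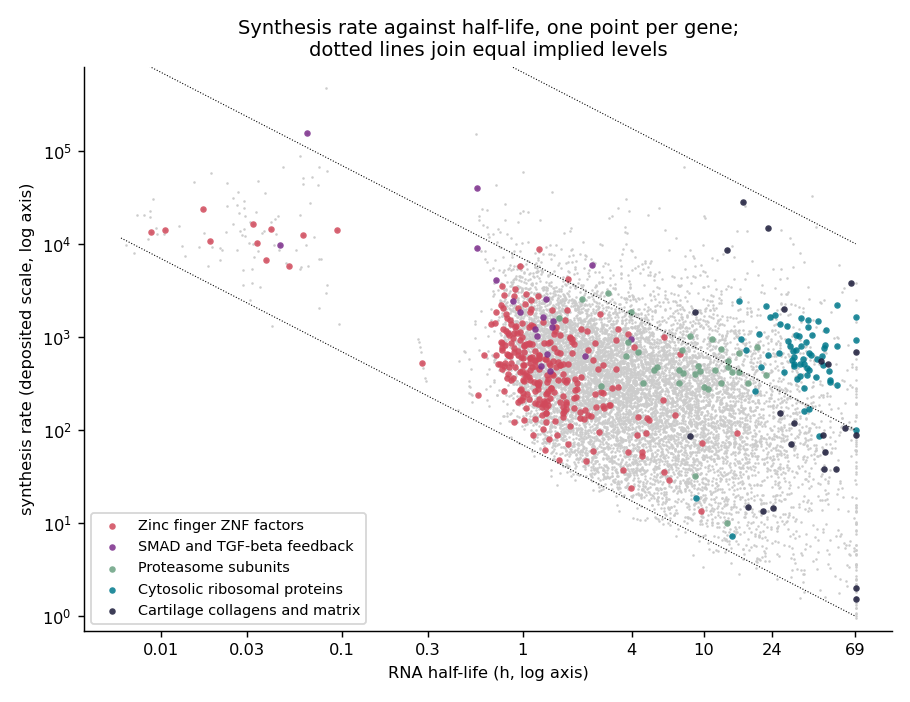
Synthesis rate on the deposited scale against RNA half-life in hours, both log axes, with 1 point per gene and dotted lines that join equal implied levels. Coloured points mark ZNF factors and SMAD genes, mostly near 1 to 2 h, and proteasome, cytosolic ribosomal and cartilage matrix genes at longer half-lives, and the genes under 0.4 h stand apart at the left.

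Half-lives varied widely among genes of the same decile of level. Within each decile of genes by level, the 90th percentile of half-life was 10.1 to 16.3 times the 10th. The median was 2.49 h in the decile of the lowest median, the 3rd, and 12.1 h in the highest. The highest decile spans levels from 9665 to 1880390, so its members are not of equal level. In it, the 111 genes of shortest half-life (0.0644 to 2.52 h) included 20 regulators and 3 matrix genes, and the 111 of longest half-life (39.5 to 69.3 h) included 0 regulators, 21 matrix genes and 18 of protein making. The median levels of these shortest-lived and longest-lived genes were 14683 and 30417. The whole decile of 1106 genes held 27 regulators, 76 matrix genes and 88 of protein making. CCN2 and RPLP1 had similar levels and different half-lives, with levels of 85388 and 92642 and half-lives of 1.01 h and the ceiling.

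Among genes with a symbol at the ceiling, RPLP0, RPLP1, CHAD, the procollagen C-proteinase enhancer PCOLCE2 and MMP1 had the highest levels. The cadherin CDH13, the ER reductase DNAJC10, the carboxypeptidase CPE, COL16A1 and ITGAV came next. The ceiling gene known only by its Ensembl identifier, ranked above COMP, had a higher level than all of these. Just below it, abundant genes included CD109 (69.1 h), complement factor B (CFB, 66.2 h), LOX (66.0 h), IGFBP7 (65.7 h), the lysosomal glucosidase GAA (65.4 h), SCPEP1 (65.4 h), COMP (65.2 h), ITFG1 (65.2 h), the translocon-associated SSR4 (64.7 h), EDIL3 (64.5 h), the laminin chain LAMB1 (63.9 h) and ECRG4 (61.8 h).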

How the data were processed

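The authors' deposited tables hold 1 synthesis rate and 1 half-life per gene and group, in no stated unit. The submitters' processing notes name cutadapt 4.5, STAR 2.5.3 and EquCab3.0; the kinetic model, gene annotation and filter on genes are not given in the sources used here. The young column of the age table was used with no filter, and the young female column of the sex table served as a second estimate. Level was computed as synthesis rate × half-life / ln 2. Classes were given by their counts and medians beside those of all genes, and correlations as Spearman's rho, with pandas 2.3.3 and scipy 1.17.1; the scripts were tested on simulated data. No sample was modelled separately, and no p-value was computed.

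The 47 classes, the markers and the rule for named genes were chosen with earlier results of these data known. The rule named the 15 highest levels, the 15 highest synthesis rates, the 15 shortest and 15 longest half-lives in the upper quartile of level, 10 ceiling genes, and in each class the shortest, middle and longest member. The subgroups, the 0.4 h limit and the removal of 17 genes (assembly factors, inhibitors and paralogues) from classes collected by symbol prefix were chosen after values were seen, as were class members named beyond that rule. Alternatives tried were the second estimate, half-lives of 1 to 24 h, the upper 75% by level, and leaving out ceiling values or values under 0.4 h. Sequences and transcript lengths were not used here. Some genes that the rule would name are not reported here.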

Additional observations from a re-analysis of the deposited data

How the results depend on the processing

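Values counted as unchanged when counts stayed within 1.5 times, class medians within 0.1 on the log2 scale on the same side of the median of all genes, correlations within 0.1 and shares within 2 percentage points. Of 279 alternative values, 215 were unchanged, 53 moved and 11 changed side. The class order kept a Spearman correlation with the original of 0.959 to 0.9985. The share of synthesis held by the top 100 genes was 30.1% over all genes, 27.0% in the second estimate and 19.7% without half-lives under 0.4 h. In the upper 75% of genes by level, the median half-life was 3.94 h and the correlations of synthesis with half-life and level were -0.54 and 0.53. Classes near the median of all genes changed side, and that median also differed between settings. It was 3.64 h originally, 3.74 h in the second estimate and 3.57 h among half-lives of 1 to 24 h. Without ceiling values it was 3.60 h, and without values under 0.4 h it was 3.70 h. RAB GTPases had 3.87 h in the second estimate, 3.86 h among half-lives of 1 to 24 h, 4.31 h in the upper 75% and 3.86 h without values under 0.4 h. The IGF axis had 3.46 h among 1 to 24 h, 3.59 h in the upper 75% and 3.59 h without ceiling values. FGF and receptor tyrosine kinases had 3.58 h among 1 to 24 h and 5.98 h in the upper 75%. Mitochondrial ribosomal proteins had 3.93 h in the upper 75% and 3.69 h without values under 0.4 h. The latter equals their original value, and only the median of all genes had moved. The cause of the other shifts was not tested. Restriction to 1 to 24 h removes the ends of long classes by construction, and cartilage matrix then had 16.4 h over 7 of 24 genes. That was below cytosolic ribosomal genes (19.3 h over 11 of 63) and small leucine-rich repeat genes (19.2 h over 3 of 10). Under that restriction the class median was 3.94 h for antioxidant genes, 4.86 h for matrix proteases, 6.52 h for integrins, 11.3 h for lysosomal genes, 14.2 h for collagen-modifying enzymes, 14.7 h for fibroblastic matrix and 2.79 h for chemokines and cytokines, each over 1.5 times from its value over all members, as was that of cytosolic ribosomal genes. No paired analysis was possible because the tables hold 1 value per gene and group. Leaving out single replicates, levels per kb and half-life by sequence feature were not run, for lack of values per sample or of transcript sequences. Half-lives under 0.4 h mostly did not repeat, and 87 of 90 ceiling values did.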

Other observations

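Gene families were also collected by the stem of their symbols. Among 72 stems with at least 15 genes, the ZNF stem had the shortest median half-life, 1.23 h. It was followed by the ZBTB factors, which join a BTB domain to zinc fingers, at 1.28 h over 38 genes, the ZFP stem at 1.29 h over 20 and the KDM histone demethylases at 1.50 h over 16. The TRIM ubiquitin ligases had 1.54 h over 33 genes and the KLHL adaptors of cullin ligases 1.54 h over 22. At the long end, the RPS stem had 35.6 h over 34 genes, collagens (COL) 30.7 h over 26, the RPL stem 29.6 h over 36, the COX stem 17.4 h over 15 and the CD surface antigens 15.2 h over 24. The RPS and RPL stems also take in symbols outside the ribosomal protein class. The stems were formed from the deposited symbols, and they were chosen after values were seen.

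The 716 genes listed only by an Ensembl identifier had a median half-life of 3.74 h, beside 3.63 h for the 10340 genes with a symbol. Of these 716, 62 (8.66%) were under 1 h and 9 (1.26%) at the ceiling, beside 5.95% and 0.823% over all genes.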
